A study of Mus musculus with 6 samples.

Results

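The genes described here are 10 alpha and beta tubulins of the mouse: the beta tubulins Tubb2a, Tubb2b, Tubb3, Tubb4b, Tubb5 and Tubb6, and the alpha tubulins Tuba1a, Tuba1b, Tuba1c and Tuba4a. They were selected on their measured expression in LOH against heterozygous libraries, that is, as a named list drawn up with that comparison already known, so their differences between genotypes are given as descriptions with standard errors and without a test. All 10 were found among the 53379 genes of the count table, and all 10 were among the 14537 genes kept by the filter on low counts. The study sequenced total RNA of 6 organoid cultures, epithelial cells kept as 3-dimensional structures inside a matrigel dome with mouse complete organoid medium. The cells came from pancreatic tumours of KPC mice, strain C57/Bl6, which carry a conditional KrasLSLG12D/+ allele, a conditional Trp53 R172H allele and Pdx1-Cre, a Cre recombinase under a promoter active in the developing pancreas. The heterozygous libraries (n = 3) have the genotype Trp53LSLR172H/+, and the LOH libraries (loss of heterozygosity, n = 3) have Trp53LSLR172H/-. Each of the organoid lines 6, 23 and 34 gave 1 library of each genotype, so a group holds 3 lines with 1 culture each. The descriptions of the LOH libraries carry the suffix Nut, which the heterozygous ones lack and no label explains, so its part and that of the genotype cannot be told apart.

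An alpha and a beta tubulin form the dimer from which microtubules are built. Cells express several genes of each kind, called isotypes: some, such as Tubb5, Tubb4b and Tuba1b, are made in most dividing cells, and others, such as Tubb3, are known for neurons. Tubulin mRNA is under autoregulation: when unpolymerised tubulin is in excess, TTC5 binds the start of the nascent tubulin chain on the ribosome and the mRNA being translated is degraded. Microtubules carry transport, give epithelial cells their axis and form the mitotic spindle.

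The first coding bases are shown, for all members but Tubb6, because they encode the start of the chain that TTC5 reads. They come from GENCODE M21 transcripts on GRCm38, 5′ to 3′, with the first codons in capitals. The last codon in capitals is ATC in the beta tubulins shown and TGC in the alpha tubulins. For the alpha tubulins (for Tuba4a, its transcript Tuba4a-202) the coordinates span the first intron, which lies after the start codon and is left out of the sequence.
Tubb2a, chr13:34077915-34077929, minus strand: ATGCGCGAGATCgtg
Tubb2b, chr13:34130219-34130233, minus strand: ATGCGAGAGATCgtg
Tubb3, chr8:123411606-123411620, plus strand: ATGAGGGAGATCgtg
Tubb4b, chr2:25224576-25224590, minus strand: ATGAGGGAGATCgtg
Tubb5, chr17:35838039-35838053, minus strand: ATGAGGGAAATCgtg
Tuba1a, chr15:98951680-98953453, minus strand: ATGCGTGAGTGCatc
Tuba1b, chr15:98933184-98934335, minus strand: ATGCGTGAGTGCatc
Tuba1c, chr15:99030422-99034105, plus strand: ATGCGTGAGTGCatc
Tuba4a, chr1:75217423-75219195, minus strand: ATGCGCGAGTGCatt

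Tuba1a, Tuba1b and Tuba1c are identical over these bases, and so are Tubb3 and Tubb4b. Over the whole coding sequence the 3 Tuba1 genes were 97.1% to 98.3% identical to each other, and each was 84.8% to 85.2% identical to Tuba4a. Tubb2a and Tubb2b were 96.5% identical, with 47 differences over 1335 aligned bases and a longest identical run of 551 bases. The other pairs of beta tubulins were 80.2% to 85.9% identical. The end of the coding sequence encodes the acidic tail, where many isotypes differ. Tubb2a and Tubb2b differ there at 3 of the last 60 bases, in capitals here. None of the 3 changes the amino acid encoded.
Tubb2a, chr13:34074471-34074530, minus strand: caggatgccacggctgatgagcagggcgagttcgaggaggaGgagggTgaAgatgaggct
Tubb2b, chr13:34127474-34127533, minus strand: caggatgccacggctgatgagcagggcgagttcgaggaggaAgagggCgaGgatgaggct

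This likeness bears on the values, because RSEM, the authors' counting tool, divides a read that matches several transcripts between them. Of all 50-base windows of its transcript with the most expected counts, Tubb2a had 50.4% and Tubb2b 60.7% that occur in no other gene. The share was 38.4% for Tuba1a, 27% for Tuba1b, 39% for Tuba1c and 49.1% for Tubb4b, and it was between 98.5% and 100% for Tubb3, Tubb5, Tubb6 and Tuba4a. With 100-base windows, Tubb2a reached 63.1%, Tubb2b 72.3% and Tuba1b 34.4%. So the levels of Tubb5 and Tubb6 rest almost wholly on sequence of their own, while the split among the Tuba1 genes and between Tubb2a and Tubb2b depends on how shared reads were divided. For Tuba4a the windows cover only Tuba4a-201, with 36.2% of the gene's counts, and its other transcripts were not examined. Genes outside the family that shared at least 50 windows with a member took little: 13 such genes held 0.141% to 0.161% of the joint counts in a library.

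**Figure D1:**
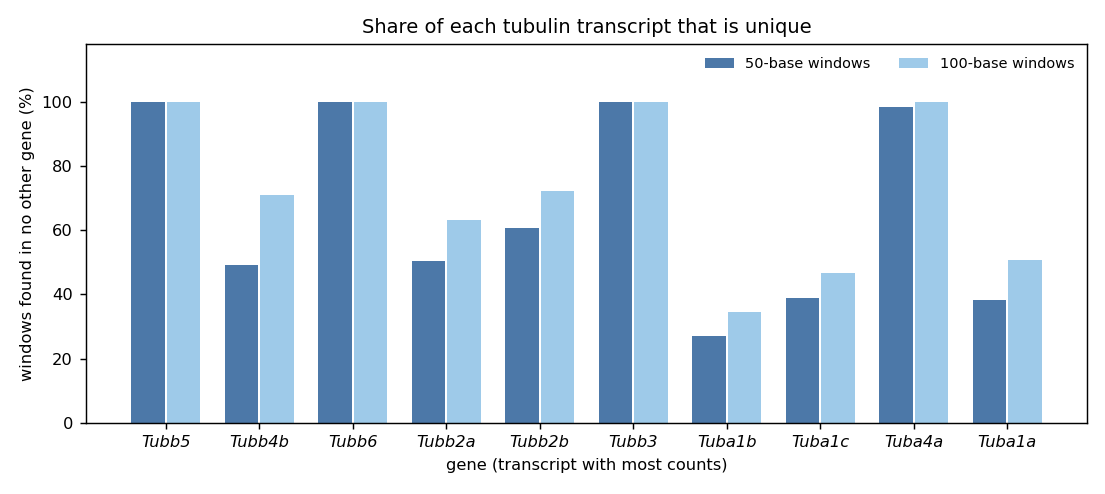
For each tubulin gene, on the horizontal axis, the bars give the percentage of 50-base and 100-base windows of its transcript with the most expected counts that occur in no other annotated gene. Tubb3, Tubb5, Tubb6 and Tuba4a stand at or near 100%, and Tuba1b is lowest at 27% and 34.4%.

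The libraries held 13680458 to 27917277 expected counts, and 3 counts corresponded to 0.1 to 0.223 CPM (counts per 1000000, with library sizes scaled by TMM). In the quasi-likelihood test of edgeR, 3681 of 14537 genes had an unadjusted p under 0.05. Of the 14537, 757 (5.21%) passed a Benjamini-Hochberg adjusted p of 0.05, 516 of them higher (3.55%) and 241 lower (1.66%) in LOH libraries. That count depended on the model and the libraries used: with the line as a block it was 213 (1.47%), 36 of them lower (0.248%), and it was 2449 without LOH line 6, 451 without LOH line 23 and 0 without any 1 of the heterozygous libraries, where 2272 to 2966 genes had an unadjusted p under 0.05. Trp53 had 77.3, 76.3 and 86.5 CPM in the heterozygous and 73.5, 52.5 and 47.4 CPM in the LOH libraries of lines 6, 23 and 34, with an edgeR adjusted p of 0.227. These reads do not separate the alleles, so they do not check the labels. All 8 epithelial marker genes were expressed, with Krt8 between 1153 and 2488 CPM and Epcam between 272 and 681 CPM, and none passed the edgeR test (1 at an unadjusted p under 0.05, and 0 with DESeq2 or with limma on log2(TPM + 1)). None had a log2 fold change below 0, and their median was 0.39, with medians of 0.3, 0.04 and 0.72 in lines 6, 23 and 34. In line 34 the 8 summed to 4672 CPM in the heterozygous and 9235 CPM in the LOH library.

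Of the 10 tubulins, 9 had a log2 fold change below 0 in LOH against heterozygous libraries, beside 46.0% of all tested genes. Their median was -0.88, against 0.06 over all tested genes. In 8 of them every LOH library lay under every heterozygous library, which held for 16.5% of all tested genes and for 19.9% of the 1327 tested genes averaging at least 100 CPM. It follows that these 8 genes were lower in LOH in each of the 3 lines, which by itself held for 21.6% of all tested genes. The exceptions were Tuba4a and Tubb3. Since the list was chosen with this contrast known, these shares describe it and are no test of it.

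**Figure D2:**
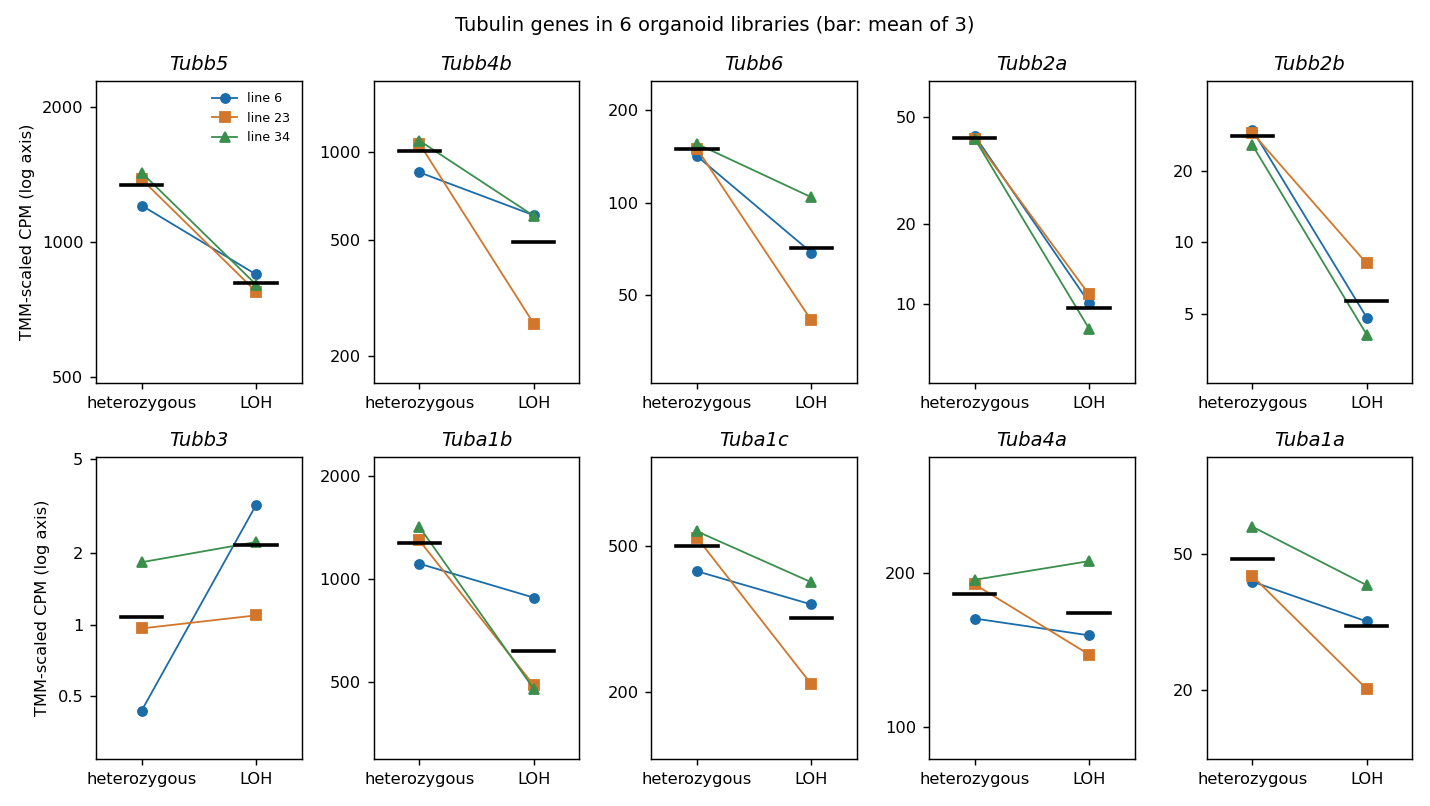
Each panel shows 1 tubulin gene, with TMM-scaled CPM on a log axis for the heterozygous and LOH libraries, a line joining the 2 libraries of each organoid line and a bar at each group's mean. Tubb2a and Tubb2b sit between 25.6 and 42.6 CPM in heterozygous and between 4.1 and 10.9 CPM in LOH libraries, while the groups of Tuba4a and Tubb3 overlap.

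Among the beta tubulins, Tubb2a (ENSMUSG00000058672.7; chromosome 13, 34074274 to 34078007, minus strand, GRCm38) had 42.6, 41.5 and 41.5 CPM in heterozygous lines 6, 23 and 34 and 10.1, 10.9 and 8.1 CPM in LOH lines. The group means were 41.9 ± 0.65 and 9.7 ± 1.43 CPM (SD, n = 3 each), from 559 to 1277 and 174 to 288 counts. The heterozygous libraries were almost equal, and every LOH library lay far below them. The fitted log2 fold change was -2.11 (SE 0.19), and within lines 6, 23 and 34 the log2 ratios were -2.06, -1.92 and -2.34. Tubb2a, an isotype known for brain and other differentiating tissue, had line ratios that lay closer together than those of Tubb2b.

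Tubb2b (ENSMUSG00000045136.6; chromosome 13, 34126748 to 34130466, minus strand), the neighbour and near copy of Tubb2a, had 29.7, 28.8 and 25.6 CPM in heterozygous and 4.83, 8.15 and 4.1 CPM in LOH libraries. The fit gave -2.29 (SE 0.30) on the log2 scale, and the line ratios were -2.6, -1.81 and -2.62. The groups did not overlap, and line 23 had the highest LOH value of Tubb2b as it had for Tubb2a. Summed with each other and with the pseudogene Tubb2a-ps2 before the fit, the pair had 72.3, 70.3 and 67.2 CPM in heterozygous and 14.96, 19.02 and 12.2 CPM in LOH libraries. Their joint log2 fold change was -2.18 (SE 0.22).

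The genes around this pair were examined as well. Chromosome 13 had median log2 ratios of -0.51, -0.14 and -0.79 in lines 6, 23 and 34 over 391 genes averaging at least 5 CPM. The 9 tested genes at that level within 1000000 bases of the pair had a median log2 fold change of -0.51, with a range from -1.34 to 0.14. Of these, 8 were below 0 and 0 passed the edgeR test, with 3 at an unadjusted p under 0.05 and 2 called with DESeq2 and 4 with limma on log2(TPM + 1), all of them lower. Over all genes, 3681 of 14537 had an unadjusted p under 0.05 in edgeR. DESeq2 called 900 of 14479 lower, and limma 1631 of 11918. In the fitted log2 fold change both Tubb2a and Tubb2b lay below every one of these neighbours. Within line 6 the neighbour Pxdc1 had a log2 ratio of -2.22, under the -2.06 of Tubb2a. What the level of the chromosome contributes to the values of the pair was not tested in any of the lines.

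The 250 bases before the start of Tubb2a (RefSeq, GRCm38.p6, chr13:34078009-34078258, minus strand) are shown since Tubb2a and Tubb2b had the largest differences of the 10 genes and the promoter table holds the former. Capitals mark matches on either strand to the TATA box letters TATAAA, to the CCAAT box (CCAAT itself), to the GC box letters GGGCGG or to the cyclic AMP response element TGACGTCA, motifs that do not overlap each other here.
Tubb2a promoter: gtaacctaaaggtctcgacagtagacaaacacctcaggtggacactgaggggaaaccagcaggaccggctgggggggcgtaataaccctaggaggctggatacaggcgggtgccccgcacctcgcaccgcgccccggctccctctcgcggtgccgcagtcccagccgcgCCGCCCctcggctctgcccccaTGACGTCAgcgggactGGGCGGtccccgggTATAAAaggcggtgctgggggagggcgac

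The window holds TATAAA 29 bases before the start, TGACGTCA 59 bases before it, and GGGCGG on both strands. Of 32851 promoter windows of this length, 12.4% hold TATAAA, 1.55% hold TGACGTCA, 32.7% hold GGGCGG and 33.8% hold CCAAT, in each case on either strand. Among the 8 tubulins found in the promoter table (all but Tubb2b and Tubb6), 1 held TATAAA and 1 held TGACGTCA, both times Tubb2a. GGGCGG was in 6 of the 8, and CCAAT in 5, Tubb4b, Tubb3, Tuba1a, Tuba1c and Tubb5. These are matches of letters and do not show that a factor binds.

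Tubb5 and Tubb4b carried most of the beta tubulin message. Tubb5 (ENSMUSG00000001525.10; chromosome 17, 35833921 to 35838306, minus strand), a beta tubulin of proliferating cells, had 1206, 1379 and 1427 CPM in heterozygous and 846, 775 and 804 CPM in LOH libraries. With 808 ± 35.9 CPM against 1337 ± 116 CPM (SD, n = 3 each), the LOH libraries lay close together. This came to -0.73 on the log2 scale (SE 0.17), with line ratios of -0.51, -0.83 and -0.83.

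Tubb4b (ENSMUSG00000036752.4; chromosome 2, 25222160 to 25224702, minus strand), a widely expressed isotype that is also used in cilia, had 850.1, 1067 and 1091 CPM in heterozygous and 606, 258 and 603 CPM in LOH libraries. The LOH library of line 23 was far below the other LOH libraries. The log2 fold change was -1.04 (SE 0.34), the line ratios were -0.49, -2.05 and -0.86, and leaving out LOH line 23 gave -0.73. Adding the pseudogenes Tubb4b-ps1 and Tubb4b-ps2, which held at most 30.56 and 5.9 counts in a library, left it at -1.04. Foxj1, a regulator of motile cilia, had 17.3, 9.94 and 13.9 CPM in heterozygous and 0.23, 7.21 and 1.77 CPM in LOH libraries (edgeR adjusted p 0.208). Of the 4 multiciliated cell markers tested, only Foxj1 had a log2 fold change below 0, and the median of the 4 was 0.50. The 11 multiciliated cell markers summed to 12.02 to 20.1 CPM in heterozygous and 3.2 to 10.3 CPM in LOH libraries, with Dnah5 at 0 in every library. Their part in the Tubb4b difference was not tested.

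Tubb6 (ENSMUSG00000001473.6; chromosome 18, 67390717 to 67402749, plus strand), a beta tubulin of non-neuronal tissue, had 142, 149.6 and 155 CPM in heterozygous and 68.9, 41.5 and 104 CPM in LOH libraries. The heterozygous libraries were tight and the LOH libraries wide, at 149 ± 6.8 and 71.5 ± 31.4 CPM (SD, n = 3 each). On the log2 scale the difference was -1.06 (SE 0.33), with line ratios of -1.04, -1.85 and -0.58, on a chromosome whose medians were between -0.03 and 0.19.

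Tubb3 (ENSMUSG00000062380.4; chromosome 8, 123411424 to 123422015, plus strand), the isotype used as a neuronal marker, was near the limit of detection, with 13, 13 and 55 counts in heterozygous and 55, 29 and 48 counts in LOH libraries. These correspond to 0.43, 0.96 and 1.84 CPM and to 3.2, 1.09 and 2.24 CPM, and the groups overlapped. Its log2 fold change of 1.0 (SE 0.64) came mostly from line 6, with line ratios of 2.66, 0.17 and 0.27. The annotation places Gm20388, with 763 to 1800 counts, on the same strand over the same interval. The main Tubb3 transcript shared no 50-base window with any other annotated gene. What the overlap contributes to the Tubb3 counts was not tested. The 14 neural and endocrine markers summed to 2.08 to 2.27 CPM in heterozygous and 2.21 to 9.69 CPM in LOH libraries, with Elavl4, Gap43, Ins1 and Ins2 at 0 in every library. Of the 2 tested, Snap25 was called higher (0.03 to 0.13 against 0.81 to 8.29 CPM, edgeR adjusted p 0.0478). Its heterozygous values were near the level of 3 counts, which was 0.1 to 0.223 CPM. The other, Nefh, had a log2 fold change below 0 and did not pass. With the line as a block 0 of the 2 passed. The part of such cells in the Tubb3 values was not tested.

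Among the alpha tubulins, Tuba1b (ENSMUSG00000023004.8; chromosome 15, 98931425 to 98934565, minus strand), the main alpha isotype of dividing cells, had 1108, 1294 and 1418 CPM in heterozygous and 882, 490.3 and 479 CPM in LOH libraries. The groups did not overlap, and the LOH library of line 6 stood nearest to the heterozygous ones. The log2 fold change came to -1.05 (SE 0.28), with line ratios of -0.33, -1.4 and -1.57.

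Tuba1c (ENSMUSG00000043091.8; chromosome 15, 99029891 to 99038110, plus strand) had 427, 527 and 549 CPM in heterozygous and 346, 209 and 398 CPM in LOH libraries, a log2 fold change of -0.66 (SE 0.27). Tuba1a (ENSMUSG00000072235.5; chromosome 15, 98949837 to 98953703, minus strand), an isotype prominent in developing neurons, had 41.4, 43 and 59.9 CPM in heterozygous and 31.7, 20.2 and 40.5 CPM in LOH libraries, a log2 fold change of -0.65 (SE 0.30). In both genes line 23 had the lowest LOH value, and the gap between the groups was narrow, less than 1 CPM for Tuba1a. Since reads of these genes are hard to separate, the 3 were also summed. The sum had 1576, 1865 and 2027 CPM in heterozygous and 1260.1, 719.5 and 917 CPM in LOH libraries, with a log2 fold change of -0.92 (SE 0.25) and line ratios of -0.32, -1.37 and -1.14.

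The 3 Tuba1 genes lie side by side, but the genes around them did not share their direction. The 30 tested genes averaging at least 5 CPM within 1000000 bases had a median log2 fold change of 0.11, with 11 below 0 and 2 called in the edgeR test, 1 in each direction. Chromosome 15 had medians of 0.32, 0.1 and 0.08 in lines 6, 23 and 34 over 404 genes.

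Tuba4a (ENSMUSG00000026202.13; chromosome 1, 75214228 to 75219865, minus strand), an isotype known for muscle, platelets and mature neurons, had 163, 190.2 and 194 CPM in heterozygous and 151, 139 and 211 CPM in LOH libraries. The groups overlapped, with the highest and the lowest of the 6 values both in LOH libraries. This gave a log2 fold change of -0.13 (SE 0.21), and its line ratios were -0.11, -0.46 and 0.12, so line 34 went against the other lines. In its isoform table, Tuba4a-206 was 32.1% to 39.4% of the gene's TPM and Tuba4a-201 17.7% to 24.1%, with ranges that overlapped between the genotypes. Stk16 overlaps Tuba4a on the opposite strand with 531 to 1352 counts.

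**Figure D3:**
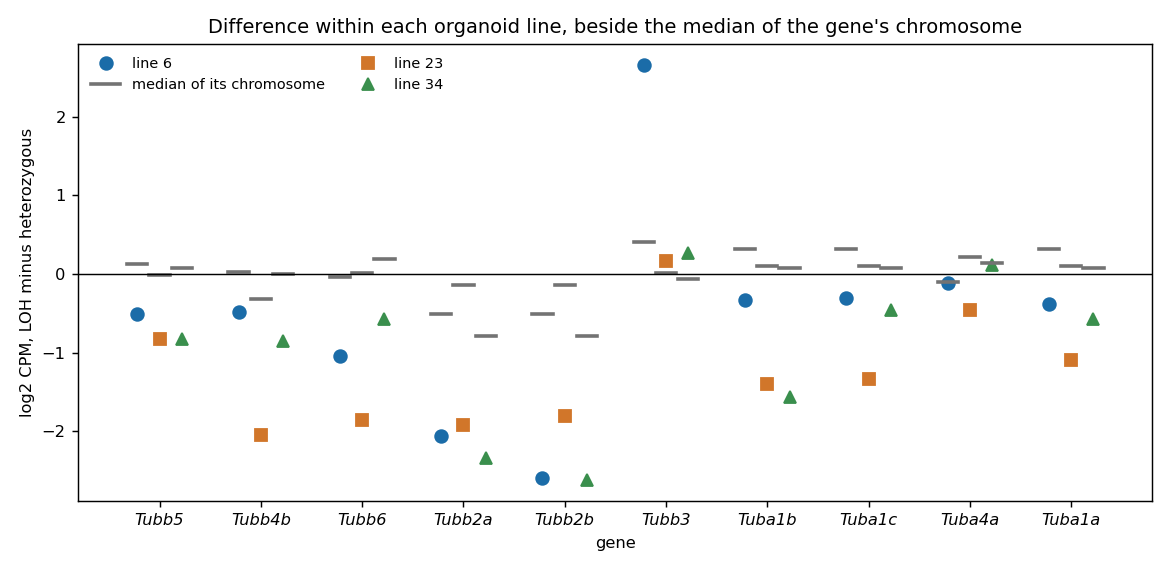
For each tubulin gene the symbols give log2 CPM in LOH minus heterozygous within organoid lines 6, 23 and 34, and the grey dashes give the median of that line over genes of the same chromosome with a mean of at least 5 CPM. The ratios of Tubb2a and Tubb2b lie between -1.81 and -2.62, under their chromosome's medians in each line, and those of Tuba4a lie on both sides of 0.

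The lines differed in how far the family was lower. For lines 6, 23 and 34 the median log2 ratio of the 10 genes came to -0.44, -1.37 and -0.7. The LOH library of line 23 was the lowest of the LOH libraries for 7 genes, and that of line 34 for the other 3, Tubb2a, Tubb2b and Tuba1b. Each line has 1 library per genotype, so differences between lines were not tested.

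To compare levels between genes, TPM was used, which is scaled for transcript length as well as depth. The alpha tubulins summed to 1415, 1367 and 1532 TPM in heterozygous and 854, 489 and 586 TPM in LOH libraries of lines 6, 23 and 34. The beta tubulins summed to 1565, 1501 and 1615 TPM in heterozygous and 782, 464 and 650.5 TPM in LOH libraries. These sums include the isotypes outside the 10, which were minor. The alpha to beta ratio stayed close to 1 in every library, at 0.904, 0.911 and 0.949 in heterozygous and 1.09, 1.05 and 0.9 in LOH libraries. On log2(TPM + 1) the median difference of all genes was lower by 0.39 than on the TMM-scaled counts, and the TPM sums include that shift. On TMM-scaled CPM the log2 difference was -0.3, -1.25 and -0.97 for the alpha sum and -0.56, -1.28 and -0.84 for the beta sum in lines 6, 23 and 34.

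By share of the class, Tuba1b was 63.4%, 62.5% and 63.5% of the alpha tubulin TPM in heterozygous and 61.9%, 54.9% and 41% in LOH libraries. Tuba4a was 12.8%, 13.4% and 12.3% in heterozygous and 14.7%, 22.3% and 25.6% in LOH libraries, so its share was higher in each LOH library while its own CPM overlapped between the groups. Tuba1c was 21.2% to 21.9% and 20.2% to 29.4%. In the beta class, Tubb4b was 48.5%, 51.4% and 51.1% in heterozygous and 51.1%, 33.5% and 51% in LOH libraries, and Tubb5 was 40.6%, 39.1% and 39.5% and 42.1%, 59% and 39.8%. The heterozygous libraries were alike in their make-up, and LOH line 23 alone had more Tubb5 than Tubb4b. Tubb2a made up 1.92% to 2.4% of the beta class in heterozygous and 0.675% to 1.38% in LOH libraries. Shares of a whole depend on each other, and the Tuba1 shares also on how RSEM divided reads.

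**Figure D4:**
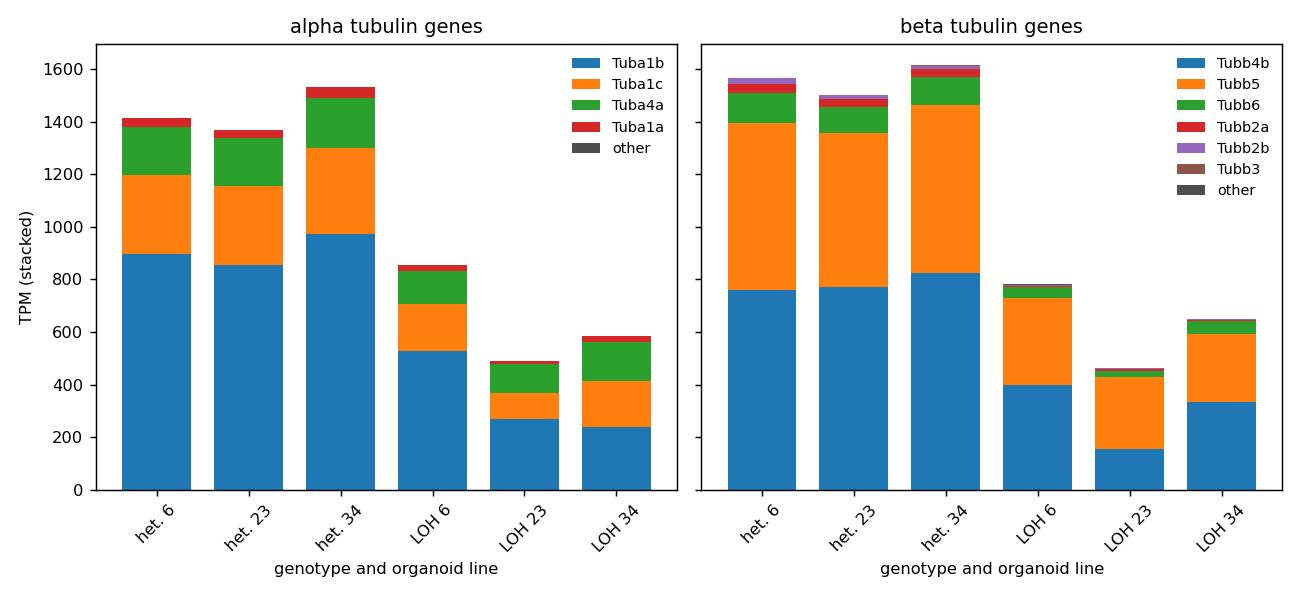
Stacked bars give the TPM of the alpha tubulin genes (left) and beta tubulin genes (right) in each library, labelled by genotype and organoid line, with isotypes outside the main ones as other. The alpha bars reach 1367 to 1532 TPM in heterozygous and 489 to 854 TPM in LOH libraries, and Tubb5 exceeds Tubb4b in LOH line 23.

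By the likeness of their profiles over the 6 libraries, Tubb2b ranked 19 among 10075 genes averaging at least 5 CPM in Pearson correlation of log2 CPM with Tubb2a (r = 0.986). Tubb5 ranked 102 (r = 0.964) and Tuba4a 4368 (r = 0.235). The 3 nearest genes were Ccnh, the cyclin partner of the CDK-activating kinase, Zfp365 and Mad2l1, a spindle checkpoint gene, with r of 0.99995, 0.997 and 0.995. Their own log2 fold changes were -0.71, -4.41 and -0.84. These values describe 6 points in 2 groups that share libraries and depth, and they carry no test.

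The wider microtubule apparatus was described by 7 lists of 165 genes by function, of which 145 were tested. In the edgeR test 4 of the 145 passed, 3 higher and 1 lower, beside 5.21% of all tested genes. In simulated data this test called only 4 of 66 genes with a log2 change of 1, so changes of that size can be missed. With the line as a block 1 passed, with DESeq2 24 (9 higher and 15 lower), and with limma on log2(TPM + 1) 27 of the 134 covered (2 higher and 25 lower). Over all genes, DESeq2 called 1390 higher and 900 lower of 14479, and limma 280 higher and 1631 lower of 11918. In edgeR 43 of the 145 and 3681 of all 14537 genes had an unadjusted p under 0.05. The counts over all genes are the background for each list below. Without LOH line 6 edgeR called 24, and without any 1 of the heterozygous libraries 0, with 18 to 34 at an unadjusted p under 0.05.

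Of 10 other tubulins 6 were tested, and Tubb4a passed. Tubb4a, a beta tubulin known for oligodendrocytes and neurons, rose from 0.667, 0.594 and 0.534 CPM in heterozygous to 5.06, 3.66 and 3.68 CPM in LOH libraries of lines 6, 23 and 34. These rest on few counts, 20, 8 and 16 in heterozygous and 87, 97 and 79 in LOH libraries. The log2 fold change reached 2.78 (SE 0.36 and edgeR adjusted p 0.0164, and 0.0498 with the block), and the groups did not overlap. It did not pass without heterozygous line 6, 23 or 34, at edgeR adjusted p-values of 0.107, 0.098 and 0.117. Even so it was at most 0.328% of the beta tubulin TPM in a library.

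The list of folding and autoregulation held the chaperonin, prefoldin and tubulin cofactor genes and Ttc5, and all 22 were tested. Its median log2 fold change was -0.46, against 0.06 over all tested genes, with 16 of 22 below 0 and line medians of -0.13, -0.7 and -0.56. None passed in edgeR, and 8 of the 22 had an unadjusted p under 0.05, beside 3681 of all 14537 genes. DESeq2 called 4 lower, beside 900 of 14479 genes, and limma on log2(TPM + 1) called 9 lower, beside 1631 of 11918. The smallest p-values were those of Cct2 and Cct8, subunits of the chaperonin that folds tubulin. Cct2 had 440.1, 580.4 and 530.7 CPM in heterozygous and 287, 246 and 327 CPM in LOH libraries, a log2 fold change of -0.85 (SE 0.20 and edgeR adjusted p 0.0557), and Cct8 had one of -0.63 (SE 0.18 and edgeR adjusted p 0.0855). Ttc5, the sensor of tubulin autoregulation, had 17.2, 23.5 and 20.6 CPM and 23.5, 20.3 and 22.2 CPM, a log2 fold change of 0.11 (SE 0.20 and edgeR adjusted p 0.766). Its groups overlapped, and its sign turned in 3 of 14 alternative settings.

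The 19 genes of microtubule nucleation, which include the gamma-tubulin complex and the augmin complex, had a median of -0.36 with 15 below 0. None passed in edgeR (8 at an unadjusted p under 0.05), and DESeq2 called 1 higher and 5 lower. The augmin subunits Haus4 and Haus1 came nearest, at -1.01 (SE 0.24 and edgeR adjusted p 0.0601) and -1.04 (SE 0.25 and edgeR adjusted p 0.0621).

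Of 17 genes that destabilise or sever microtubules 14 were tested, with a median of -0.38 and 9 below 0. Fign, which encodes the severing enzyme fidgetin, fell from 51, 19 and 12 counts in heterozygous to 0, 2 and 1 counts in LOH libraries of lines 6, 23 and 34 (edgeR adjusted p 0.0383). It did not pass with the block (edgeR adjusted p 0.0914), without any 1 of the heterozygous libraries, or without LOH line 23 or 34 (0.0775 and 0.078), and its counts are too few for a fold change. Stmn1, which encodes the tubulin-sequestering protein stathmin, had 119.8, 146 and 140.2 CPM in heterozygous and 58.2, 81 and 43.5 CPM in LOH libraries. The groups of Stmn1 did not overlap, and its log2 fold change of -1.15 (SE 0.26) had an edgeR adjusted p of 0.0516.

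Of 27 genes that bind or stabilise microtubules 25 were tested, with a median of -0.13. None passed in edgeR (5 at an unadjusted p under 0.05), and DESeq2 called 1 higher and 2 lower. Mid1, a ubiquitin ligase on microtubules, was at -1.15 (SE 0.28 and edgeR adjusted p 0.0647), and Camsap1, which binds microtubule minus ends, at -0.81 (SE 0.22 and edgeR adjusted p 0.0815). Of 26 tubulin-modifying genes 20 were tested, with a median of 0.13. None passed in edgeR (4 at an unadjusted p under 0.05), and DESeq2 called 1 in each direction. The glycylase gene Ttll3 was at 1.82 (SE 0.51 and edgeR adjusted p 0.0823) and the glutamylase gene Ttll4 at -0.52 (SE 0.16 and edgeR adjusted p 0.102).

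The transport motors, 39 tested of 44, had a median of 0.19 with 14 below 0. The kinesin genes Kif5c and Kif21b rose. Kif5c, a cargo motor known for neurons, had 0.667, 0.371 and 0.567 CPM in heterozygous and 4.48, 10.5 and 5.73 CPM in LOH libraries, a log2 fold change of 3.65 (SE 0.47 and edgeR adjusted p 0.0164, and 0.0534 with the block). Its counts were only 20, 5 and 17 in heterozygous and 77, 278 and 123 in LOH libraries, so the size of this change is uncertain. Kif21b, which limits microtubule growth, had 12.6, 12.3 and 9.78 CPM in heterozygous and 35.7, 93.5 and 46.1 CPM in LOH libraries, a log2 fold change of 2.34 (SE 0.39 and edgeR adjusted p 0.0267, and 0.0578 with the block). Neither passed without any 1 of the heterozygous libraries, at edgeR adjusted p-values of 0.0951 to 0.143.

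Proliferation genes were examined beside the tubulins. The 18 genes had a median of -0.46 on the log2 scale with 13 below 0, and medians of -0.21, -0.93 and -0.48 in lines 6, 23 and 34. None passed in edgeR (4 at an unadjusted p under 0.05), and DESeq2 called 2 lower. Cdk1, the mitotic kinase, had 141.8, 171.8 and 182 CPM in heterozygous and 83.9, 59.7 and 109.9 CPM in LOH libraries (log2 fold change -0.97, SE 0.26, edgeR adjusted p 0.0761), and its partner cyclin Ccnb1 had a log2 fold change of -0.89 (SE 0.27 and edgeR adjusted p 0.101). The other 5 of the 18 were above 0, and 3 of these, chosen after their values were seen, stood furthest from the rest. Mki67, a marker of cycling cells, had 395, 64.8 and 131 CPM in heterozygous and 64.6, 403 and 564 CPM in LOH libraries of lines 6, 23 and 34 (log2 fold change 0.80, SE 0.87, with an edgeR adjusted p of 0.587). The kinetochore genes Cenpe (1.18, SE 1.0, with an edgeR adjusted p of 0.488) and Cenpf (1.67, SE 1.06, with an edgeR adjusted p of 0.36) were, like Mki67, lower in LOH in line 6 and higher in lines 23 and 34. The part of proliferation in the tubulin values was not tested. In these bulk libraries, fewer cells of a kind and less RNA per cell cannot be told apart.

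**Figure D5:**
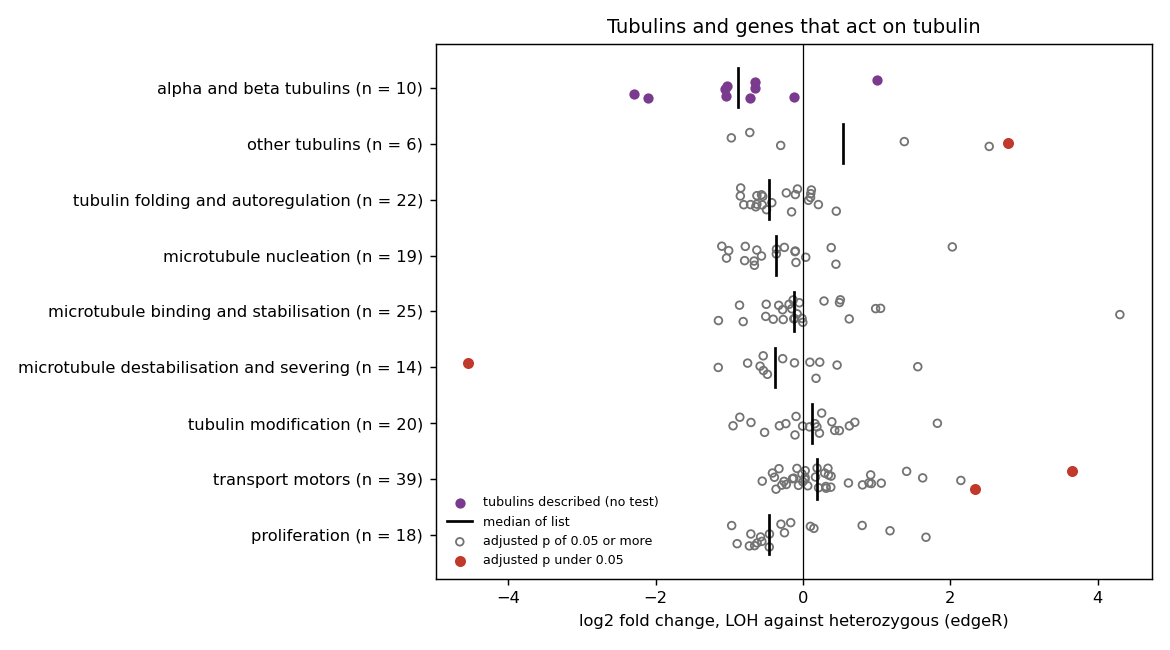
Points give the edgeR log2 fold change, LOH against heterozygous, of the tubulins described and of the tested genes in each list, with filled red points for an adjusted p under 0.05 and a black bar at each list's median. The tubulins have a median of -0.88, the folding and proliferation lists medians of -0.46 each, and the transport motors 0.19.

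Markers of other cells were low. The 10 fibroblast markers summed to 0.07 to 0.17 CPM in heterozygous and 0.61 to 1.11 CPM in LOH libraries, with Col3a1 and Thy1 at 0 in every library. The 10 leukocyte markers summed to 1.93 to 2.4 CPM and 4.19 to 14.9 CPM, mostly from Cd68, with Cd4 and Adgre1 at 0. Beside the CPM of the main tubulins these sums are small, and their part in the tubulin values was not tested.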

How the data were processed

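The labels' protocols name TruSeq Stranded Total RNA libraries. FastQC 0.11.5, STAR 2.5.2b, RSEM 1.3.0, DESeq2 1.44.0 and the build GRCm38.p5 are named in the submitters' processing notes, with no role or order. The deposited tables hold expected counts, which are the authors' RSEM estimates for a gene or transcript, and TPM, the authors' abundances scaled for length and depth. The deposited transcript tables also give, as a percent, the share of a gene's TPM in each transcript. The names of the authors' series tables give the annotation as GENCODE M16. The strand setting and read filters were not given in the sources used here. Gene names came from the authors' table of normalized values for 23525 genes. Coordinates and transcript sequences came from GENCODE M21 (53274 of 53379 identifiers found), whose transcripts can differ in length from M16.

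Libraries were grouped by title. Expected counts were rounded, filtered with filterByExpr and scaled by TMM. The main test was edgeR 4.0.16's quasi-likelihood test under R 4.3.3, two-sided, on group only, and called genes at a Benjamini-Hochberg adjusted p under 0.05. CPM are TMM-scaled, and their logarithms were taken with a prior count of 2. The fit was tested on simulated data. It called 67 of 67 genes with a log2 change of 4, 55 of 67 at 2 and 4 of 66 at 1, with 8 false calls. A gene with a change near 1 that did not pass is therefore not shown to be unchanged. The members and gene lists were chosen with earlier results of these data known. Genes named from lists were up to 4 higher and 4 lower with the smallest p among those that passed, or the 2 with the smallest p where none did. Ttc5, Stmn1 and Trp53 were always named, and so were the 3 genes most like Tubb2a. Alternative settings were another scaling (RLE or upper quartile), no filter, the line as a block, each library left out, DESeq2 1.42.0, paralog sums, and limma 3.58.1 on log2 TPM with a pseudocount of 1 or 0.1, for genes reaching a TPM of 1 in 3 libraries. Figures were made with Python 3.11.15 and matplotlib 3.10.9.

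Equal numbers in the titles mark the same organoid line, and this pairs the libraries. To check it, each library's deviations from its group mean were correlated over genes, which are not independent. The correlation was -0.3, 0.01 and 0.29 for lines 6, 23 and 34, and between lines it ran from -0.39 to 0.3. No label says that cultures were separate beyond the lines, so p-values measure the spread between these libraries. A count of 3 was 0.1 to 0.223 CPM, and this floor covers counting error only.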

Additional observations from a re-analysis of the deposited data

Results flagged for a closer look

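In Tuba4a the 3 organoid lines did not share a direction. Line 34 was higher in its LOH library (log2 ratio 0.12), while line 6 (-0.11) and line 23 (-0.46) were lower, which puts 0.58 between the highest and the lowest line. With a single library of each genotype in a line, this difference was not tested.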

How the results depend on the processing

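The median log2 fold change of the 10 tubulins was -0.88 and stayed between -0.71 (without LOH line 23) and -1.3 (limma on log2(TPM + 0.1)) in all 14 alternatives, and no tubulin changed sign in any alternative that gave it a value. On the TPM scale the median difference of all genes was lower by 0.39 with log2(TPM + 1) and by 0.42 with log2(TPM + 0.1), so both values of the tubulins there include that shift. The number of genes called, 757 (516 higher and 241 lower), moved to 213 with the replicate block (177 and 36), 2290 with DESeq2 (1390 and 900), 1911 with limma on log2(TPM + 1) (280 and 1631) and 1753 on log2(TPM + 0.1) (267 and 1486), and ran from 0 to 2449 with 1 library left out. The number of microtubule genes called, 4, moved to 1 with the replicate block, 24 with DESeq2, and 27 and 24 with limma, and ran from 0 to 24 with 1 library left out. RLE or upper quartile scaling, no filter and paralog sums gave 753, 751, 979 and 752 genes, and 4, 4, 5 and 4 microtubule genes. Among the genes passing in edgeR, the block ended the calls of Kif5c, Kif21b and Fign but not that of Tubb4a. With 1 sample left out an edgeR fit compares 2 libraries with 3. Depth limits Tubb3, which had 13 counts in each of 2 libraries. Of the tubulins' own values in alternatives, 123 moved by less than the replicate spread and 14 further. Of those of the other named genes, 176 held their side of the threshold, 41 gained and 17 lost a call. The cause of these changes was not tested.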
